A study of Mus musculus with 6 samples.

Results

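The mitochondrial ribosomal protein genes were taken as the protein-coding genes of GENCODE vM21 whose symbol begins with Mrpl or Mrps followed by a digit. The rule found 78 genes among 21806 protein-coding genes in the files, 49 named for the large subunit (Mrpl) and 29 for the small subunit (Mrps). All 78 passed the filter on low counts and were among the 16430 genes tested. Polyadenylated RNA was sequenced from the pancreatic islets of 3 Dpy30 knockout and 3 control mice, all male C57BL/6 mice at postnatal day 24, with hand-picked islets of 1 mouse in each library. Dpy30 belongs to all COMPASS-type enzymes, which methylate histone H3 at lysine 4, and the series title concerns this mark in the postnatal maturation of endocrine cells. The labels give no Cre driver, no allele of the knockout mice and no genotype behind the word control, so which islet cells lost Dpy30 cannot be read from them.

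Mitochondria keep their own ribosome, which translates the few membrane proteins of the respiratory chain and ATP synthase that mitochondrial DNA encodes. Its ribosomal RNAs come from mitochondrial DNA, but every one of its proteins is encoded in the nucleus, translated in the cytosol and imported. Some of these proteins descend from bacterial ribosomal proteins and others are found in mitochondrial ribosomes only. In beta cells, ATP made by the respiratory chain links glucose breakdown to insulin release.

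The knockout was visible in the targeted gene: reads from Dpy30 transcripts lacking exon 4 (GRCm38, chromosome 17, 74307720 to 74307862) made up 81.2% ± 0.83 of its reads in the knockout and 3.13% ± 2.45 in the control (SD, n = 3 each). The libraries held 17131515 to 23976598 estimated reads in the knockout and 24575889 to 25354384 in the control, and knockout replicate 2 was the shallowest. A single predicted gene, Gm42418, held 14.7% of the reads of this library and 0.0990 to 0.236% of those of the other 5. Each of the 78 genes had between 35 and 2072 estimated reads in every library. In bulk tissue, fewer cells of a type and less RNA per cell cannot be told apart.

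The 78 genes leaned to higher levels in knockout islets, by a modest amount, in both subunits. Their median log2 fold change was 0.46, a median fold of 1.37, against 0.006 over all tested genes. The values lay between -0.13 and 0.89, with quartiles of 0.34 and 0.62, and 76 of the 78 were above 0, where 50.5% of all tested genes were. At an adjusted p below 0.05, edgeR's quasi-likelihood test called 6 of the 78 higher in the knockout, against 4.1% of all tested genes, which is 7.69% of the members. It called 0 lower, against 5.84% of all genes, and DESeq2 and limma-voom called 0 lower too. At an unadjusted p below 0.05, 43 were higher, against 13.9% of all genes, and 0 were lower, against 13.5%. In 53 of the 78 all 3 knockout libraries lay above all 3 control libraries, against 17.6% of all genes, and in 0 they all lay below, against 17.2%.

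**Figure D1:**
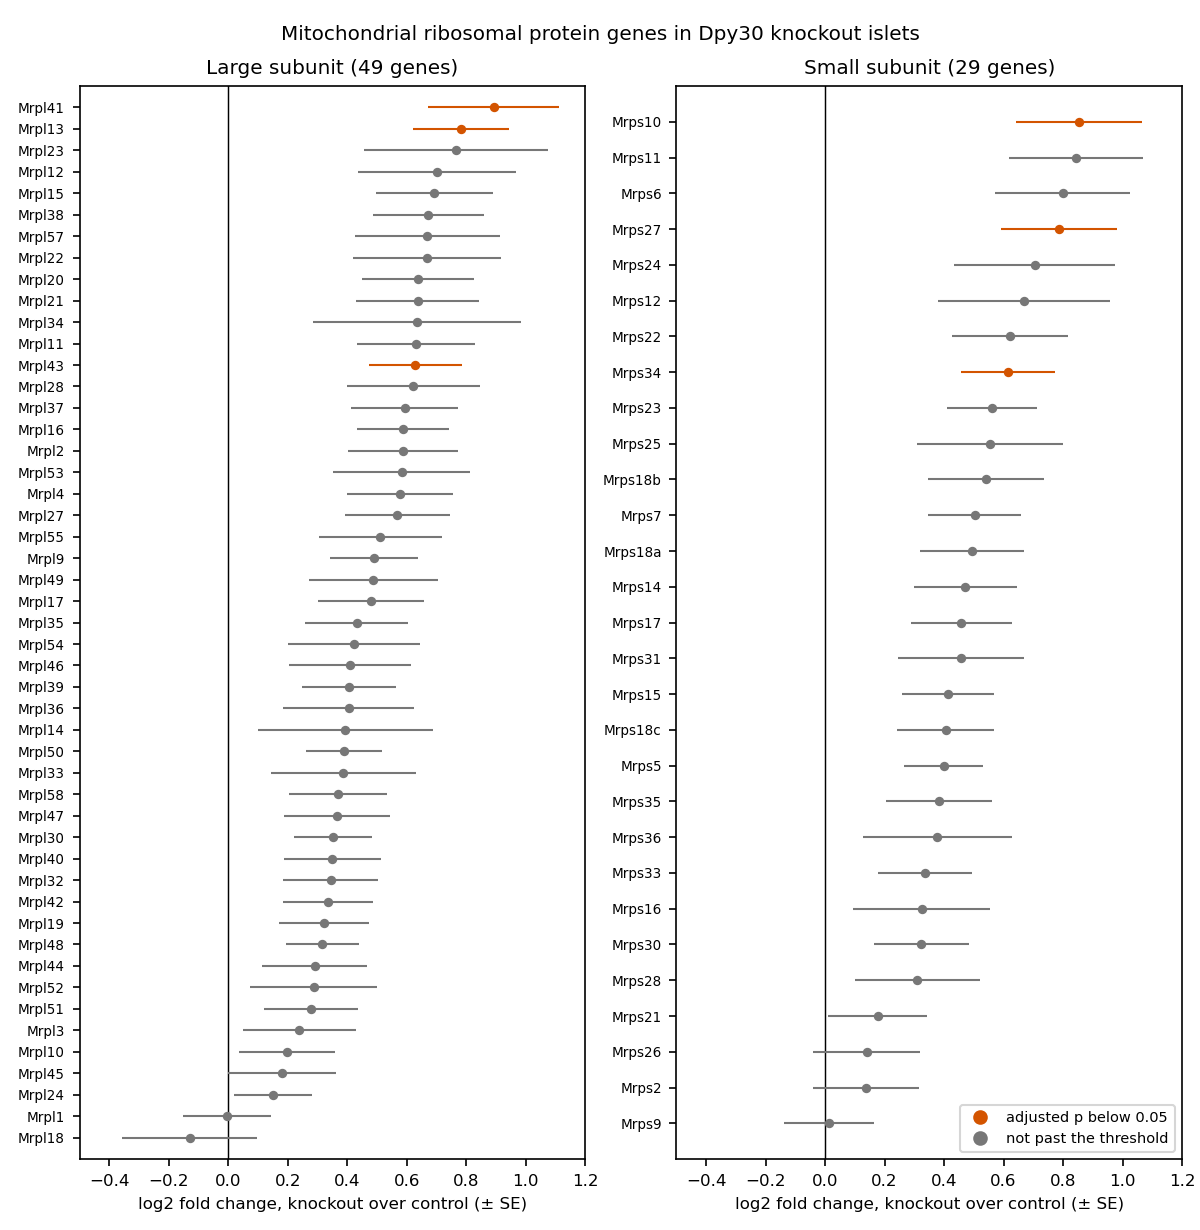
Log2 fold change of each of the 49 large-subunit and 29 small-subunit genes, knockout over control, with its SE, ordered by size. Apart from Mrpl18 and Mrpl1 all points lie right of 0, and the 6 genes with an adjusted p below 0.05 (orange) range from 0.61 to 0.89.

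The large and the small subunit had close values. Over the 49 large-subunit genes the median log2 fold change was 0.43, with 3 genes called higher, 47 above 0 and 35 whose groups did not overlap. Over the 29 small-subunit genes it was 0.46, with 3 called higher, 29 above 0 and 18 without overlap. Structures of the mammalian mitochondrial ribosome place the products of Mrps30 and Mrps18a in the large subunit despite their symbols. Mrps36 is now known as a part of the alpha-ketoglutarate dehydrogenase complex and not of the ribosome. These 3 genes, kept under the symbol rule, had log2 fold changes of 0.32, 0.49 and 0.38, inside the range of the others, and none of them passed the test.

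The 6 genes called by the test encode 3 proteins of each subunit. Their promoter sequences bear on them only as a description, since no chromatin data were measured. The stretches below are upstream of the annotated start and outside annotated exons, taken from RefSeq (GRCm38.p6) and written 5′ to 3′ on the strand of the gene. Capitals mark the core CCGGAAG, or its complement CTTCCGG, of the ETS family site that GABPA binds, a site known from promoters of many nuclear genes for mitochondrial proteins. Shown are the 3 called genes with a matched promoter window and an exon-free stretch long enough to print. They lie at chr2:24975099-24975218 (minus strand), chr13:99344706-99344785 (plus) and chr19:45006443-45006557 (minus). Of the other called genes, Mrpl13 and Mrps34 had no matched window, and the window of Mrps10 held no ETS core. Also shown are Mrps9 at chr1:42851113-42851232 (plus) and Mrps2 at chr2:28467946-28468065 (plus), which are among the 5 genes of lowest change. Of the other genes among those 5, Mrps26 and Mrpl18 do have an ETS core in their promoter window, with its first base 14 and 240 bases before the start.
Mrpl41: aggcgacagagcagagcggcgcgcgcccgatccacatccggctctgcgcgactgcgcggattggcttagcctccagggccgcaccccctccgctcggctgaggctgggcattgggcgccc
Mrps27: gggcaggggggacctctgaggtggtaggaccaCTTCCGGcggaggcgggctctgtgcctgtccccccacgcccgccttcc
Mrpl43: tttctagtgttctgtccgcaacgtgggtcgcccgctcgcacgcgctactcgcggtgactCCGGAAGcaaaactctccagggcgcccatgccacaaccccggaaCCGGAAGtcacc
Mrps9: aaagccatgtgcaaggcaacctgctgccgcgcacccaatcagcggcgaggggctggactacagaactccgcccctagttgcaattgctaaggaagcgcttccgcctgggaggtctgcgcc
Mrps2: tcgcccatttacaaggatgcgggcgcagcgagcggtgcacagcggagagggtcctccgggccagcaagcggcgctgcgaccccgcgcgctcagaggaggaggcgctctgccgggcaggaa

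In Mrpl43 the ETS core occurs 2 times, its first base lying 56 and 12 bases before the start, and in Mrps27 once, 48 bases before it. The other 3 stretches hold no ETS core. RefSeq promoter windows, 250 bases before to 50 after the start, could be matched for 69 of the 78 genes. Searched on both strands, the ETS core was in 34.8% of the 69 windows, against 17.1% of the 11090 windows of tested protein-coding genes. The YY1 core AAGATGG was in 18.8% of them, against 6.83%, and the NRF1 core GCATGCG in 11.6%, against 6.30%. At least 1 of the 3 cores was in 52.2%, against 27.2%, while the median GC content was 58.3%, against 60.7%. The median log2 fold change was 0.52 in genes with the ETS core and 0.41 in those without it, 0.49 and 0.41 for the YY1 core, and 0.44 and 0.46 for the NRF1 core, where the order was the other way. For any of the 3 cores it was 0.49 in 36 genes with one and 0.41 in 33 without. These differences were not tested.

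Mrpl13 (chromosome 15, 55534094 to 55557748, minus strand, GRCm38) encodes a large-subunit protein with a bacterial counterpart. It was at 31.1, 40.7 and 29.5 CPM (reads of the gene relative to library size, scaled by TMM) in knockout replicates 1 to 3, against 19.5, 18.5 and 20.9 CPM in control replicates 1 to 3. The groups did not overlap, with knockout replicate 2 the highest. The log2 fold change was 0.78 ± 0.16 (SE) with an edgeR adjusted p of 0.0223, the lowest of the 78. When each library was left out in turn, Mrpl13 was called in 3 of the 6 fits, those without a knockout library, and it was the single gene called without knockout replicate 2 (0.63, edgeR adjusted p = 0.0342).

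Mrpl41, a protein of mitochondrial ribosomes without a bacterial counterpart, had the largest change of the 78. The gene spans 24974117 to 24975098 of chromosome 2 (minus strand), next to the first of the sequences above. It was at 25.5, 42.7 and 27.1 CPM in the knockout, against 14.9, 18.2 and 18.1 CPM in the control. The lowest knockout library lay above the highest control library, and knockout replicate 2 lay far above the other 2. The log2 fold change was 0.89 ± 0.22 (edgeR adjusted p = 0.0408), and without that library it was 0.62 with an adjusted p of 0.0535.

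Mrpl43 is also specific to mitochondrial ribosomes and starts 779 bases from the start of Twnk, the gene of the mitochondrial DNA helicase, on the other strand of chromosome 19. It was at 31.5, 40.5 and 29.8 CPM in the knockout, against 20.5, 23.3 and 21.9 CPM in the control, again without overlap (log2 fold change 0.63, edgeR adjusted p = 0.0427). Twnk had a log2 fold change of 0.41 and was not called (edgeR adjusted p = 0.176).

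Among small-subunit genes, Mrps10, whose protein has a bacterial counterpart, was at 24.0, 33.8 and 21.3 CPM in the knockout, against 12.98, 13.8 and 16.9 CPM in the control. Mrps27 encodes a protein with pentatricopeptide repeats, an RNA-binding fold, and was at 15.2, 20.8 and 16.0 CPM in the knockout, against 8.68, 10.4 and 11.0 CPM in the control. Mrps34, whose human counterpart is mutated in a form of Leigh syndrome, was at 32.0, 38.6 and 29.9 CPM in the knockout, against 19.0, 24.0 and 22.6 CPM in the control. In none of the 3 did the groups overlap, and knockout replicate 2 was the highest library in each. Their log2 fold changes were 0.85, 0.79 and 0.61, with edgeR adjusted p of 0.0415, 0.0422 and 0.0477. They lie on chromosome 17 from 47368887 to 47381417 (plus strand), on chromosome 13 from 99344786 to 99415562 (plus) and on chromosome 17 from 24895116 to 24897502 (plus).

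**Figure D2:**
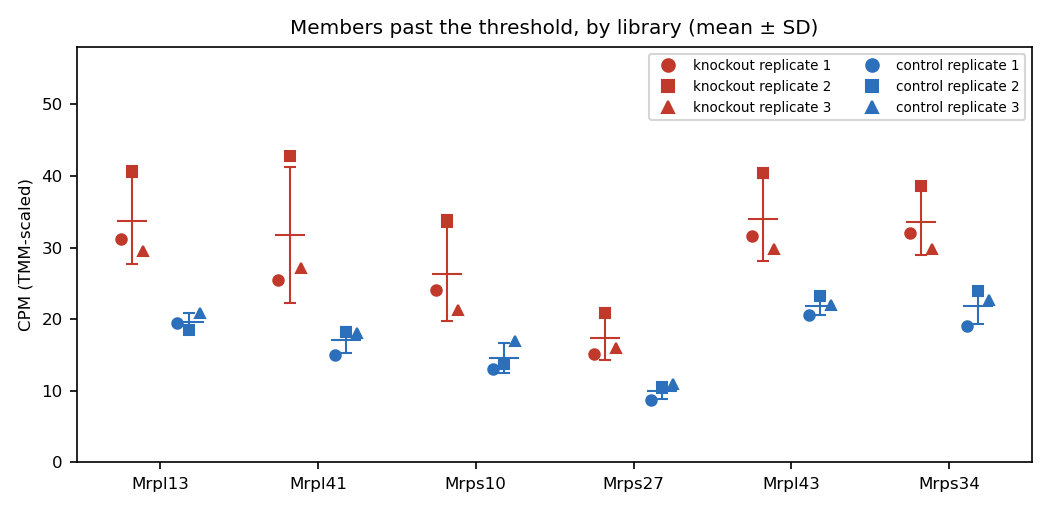
CPM of the 6 called genes in each library, knockout (red) left of control (blue), with mean and SD of 3 libraries. No knockout library lies within the control range, and knockout replicate 2 (square) is the highest of each gene, for example 42.7 CPM for Mrpl41.

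The margin of these calls was narrow. Leaving out 1 library at a time, 4 of the 6 genes were called in 0 of 6 fits, 1 gene in 1 fit and Mrpl13 in 3. Just outside the threshold lay Mrpl16, with a log2 fold change of 0.59 and an edgeR adjusted p of 0.0506, and Mrps11, with 0.84 and 0.0544. In a fit blocked by replicate number the count of members called higher was 19, against 6.93% of all genes, 10 in the large and 9 in the small subunit. Mrpl16 (edgeR adjusted p = 0.0323), Mrps11 (0.0285), Mrps23 (0.0427), Mrps6 (0.0484), Mrps22 (0.0488) and Mrpl12 (0.0368) were among those called with the block. DESeq2 called 20 higher, against 7.31% of all genes, and limma-voom 2, against 4.1%. The authors' deposited table lists all 78 with a log2 fold change above 0, and 19 of them with an adjusted p below 0.05, against 6.66% of its genes that have an adjusted p. In the authors' deposited table their median was 0.39, against 0.004 over the 21341 genes listed, and the 6 genes named above were among the 19. The settings behind its fold changes were not given, so this median may not be on the scale of the fits here.

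Mrps11, next to the threshold, and Mrps6, both with bacterial counterparts, completed the small-subunit genes of largest change. Mrps11 was at 20.3, 32.8 and 19.9 CPM in the knockout, against 11.9, 14.3 and 14.4 CPM in the control. Mrps6 was at 8.87, 13.9 and 10.2 CPM in the knockout, against 6.01, 6.07 and 6.82 CPM in the control. Neither gene's groups overlapped, while the log2 fold change of 0.80 for Mrps6 had an edgeR adjusted p of 0.0631 without the block.

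At the other end stood Mrpl18, Mrpl1, Mrps9, Mrps2 and Mrps26. Mrpl18, related to the bacterial protein that binds the small ribosomal RNA of the large subunit, was at 11.6, 11.8 and 12.9 CPM in the knockout, against 9.35, 14.5 and 16.0 CPM in the control. Mrpl1, a protein of the flexible stalk near the exit site, was at 39.0, 35.8 and 34.7 CPM in the knockout, against 40.9, 30.5 and 38.4 CPM in the control. In both genes the groups overlapped fully, and the log2 fold changes were -0.13 ± 0.23 and -0.0055 ± 0.15 (SE). Mrps9 had 27.1, 24.8 and 22.1 CPM in the knockout, against 28.0, 22.3 and 22.9 CPM in the control, a log2 fold change of 0.013. Mrps2 and Mrps26 each had 0.14. None of the 5 had an edgeR adjusted p below 0.66. The sign of each turned under at least 1 other setting.

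The genes with special roles lay inside the same range, and apart from Mrpl41 and Mrps27 none passed the test without the block. In the stalk that recruits translation factors, Mrpl12, which has also been reported to bind the mitochondrial RNA polymerase, was at 20.6, 39.1 and 26.1 CPM in the knockout, against 13.2, 19.4 and 20.0 CPM in the control. The knockout values lay above the control values by a narrow margin, and the log2 fold change was 0.70 (edgeR adjusted p = 0.133). Its neighbours at the base of the stalk, Mrpl11 and Mrpl10, had log2 fold changes of 0.63 and 0.20 (edgeR adjusted p = 0.0846 and 0.466). Mrpl58, a peptidyl-tRNA hydrolase that releases chains from stalled ribosomes, had 0.37. Mrpl27, close to the peptidyl transferase centre, had 0.57 without overlap of the groups. Mrpl37, found in mitochondrial ribosomes only, had 0.59, and the small bacterial-type proteins Mrpl33 and Mrpl36 had 0.39 and 0.40, both with overlap.

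Several of the genes cause mitochondrial disease when mutated in humans. Mrps22 was at 12.4, 14.6 and 13.5 CPM in the knockout, against 7.26, 8.87 and 10.1 CPM in the control, with no overlap and little spread within the knockout (log2 fold change 0.62, edgeR adjusted p = 0.0840). Mrps16 had 0.32, Mrps2 0.14, Mrpl3 0.24, and Mrpl44, an RNase III-like protein, 0.29, and in all 4 the groups overlapped. Mrps12, at the decoding centre, was at 31.5, 63.0 and 37.8 CPM in the knockout, against 21.7, 24.9 and 36.4 CPM in the control, where knockout replicate 1 lay below control replicate 3. The paralogs Mrps18a, Mrps18b and Mrps18c had 0.49, 0.54 and 0.40, and Mrps35 had 0.38, all 4 without overlap and none called.

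Levels between genes are compared in TPM, which corrects for transcript length, and are ordered by the mean of all 6 libraries. Within one group the order of close neighbours can differ. The median member stood at 34.2 TPM in knockout islets and 20.7 TPM in control islets. Unlike CPM here, TPM were not scaled by TMM, and the members' median fold in the edgeR fit was 1.37. By that mean the most abundant were the small-subunit genes Mrps33 (199 ± 40.8 TPM in the knockout, 128 ± 13.1 TPM in the control; SD, n = 3 each) and Mrps21 (155 ± 19.8 TPM in the knockout, 116 ± 3.58 TPM in the control). In the large subunit the highest were Mrpl17 (knockout 127 ± 9.63 TPM, control 70.8 ± 7.33 TPM), Mrpl33 (knockout 108 ± 12.5 TPM, control 67.0 ± 9.40 TPM) and Mrpl52 (knockout 77.1 ± 4.27 TPM, control 53.5 ± 5.08 TPM), although Mrpl20 and Mrpl30 were above Mrpl52 in the knockout and Mrpl24 in the control. Mrps23 followed Mrps21 among small-subunit genes at 88.7 ± 10.1 TPM in the knockout and 46.9 ± 6.55 TPM in the control. The SDs of Mrps33 and Mrps21 reach each other in both groups, but Mrps33 was above Mrps21 in each of the 6 libraries. The margin was small in control replicate 1 (115 and 114 TPM). The lowest in the large subunit were Mrpl47 (knockout 11.2 ± 2.05 TPM, control 5.87 ± 1.30 TPM), Mrpl45, which faces the tunnel exit at the inner membrane (knockout 6.29 ± 1.94 TPM, control 4.46 ± 0.61 TPM), and Mrpl23, with Mrpl19 just below Mrpl47 in the knockout. Mrps2, Mrps27 and Mrps30 were the lowest in the small subunit by the mean of all libraries, while in the control Mrps22, Mrps6 and Mrps25 were below Mrps2. Mrps30 was at 7.29 ± 1.47 TPM in the knockout and 4.68 ± 0.64 TPM in the control. Across the 78 genes the level did not go with the size of the change (Spearman 0.02 between mean TPM and log2 fold change, n = 78 genes of the same 6 libraries, which are not independent replicates).

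**Figure D3:**
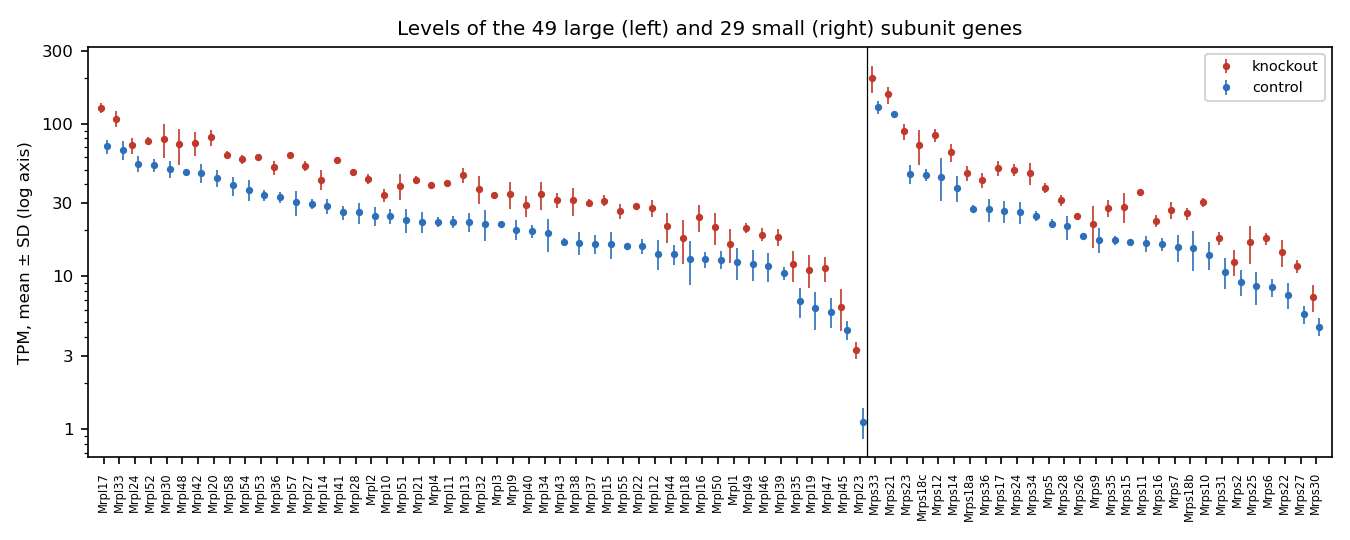
Mean TPM with SD of 3 libraries for each gene on a log axis, knockout (red) left of control (blue), ordered by the control level within each subunit. Levels run from Mrps33, 199 TPM in the knockout and 128 TPM in the control, to Mrpl23, 3.28 TPM in the knockout and 1.12 TPM in the control. The knockout mean lies above the control mean for each gene drawn. TPM are not TMM-scaled, and Mrpl18 and Mrpl1 had log2 fold changes of -0.13 and -0.0055 in the TMM-scaled fit.

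Mrpl23 is uncertain. Its level of 3.28 ± 0.43 TPM in the knockout and 1.12 ± 0.25 TPM in the control rests on 35 to 68 estimated reads in a library. The processed pseudogene Mrpl23-ps1 was assigned 522, 400 and 494 reads in the knockout and 370, 366 and 404 in the control, which is 86.9 to 91.4% of the reads of the pair. Reads that fit both copies are divided by estimation, so the log2 fold change of 0.77 for Mrpl23 describes the reads left to it. Among the other pseudogenes of the family checked, no library had more than 1.25 reads.

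Summed over the 78 genes, their reads made up 0.221, 0.251 and 0.224% of the assigned reads in the knockout, against 0.143, 0.155 and 0.174% in the control. On TMM-scaled library sizes the sums were 2009, 2696 and 2017 CPM in the knockout, against 1498, 1686 and 1753 CPM in the control. In TPM they were 3570, 3065 and 3468 in the knockout, against 1924, 1871 and 2268 in the control. The groups stayed apart on each scale, but knockout replicate 2 was the highest knockout library in CPM and the lowest in TPM. The insulin mRNAs Ins1 and Ins2, which enter the total behind TPM and percentages, took 6.51, 9.66 and 9.50% of reads in the knockout, against 13.6, 21.9 and 16.4% in the control, and their part in these differences was not tested.

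Knockout replicate 2 held the highest level of 68 of the 78 genes, where 25.5% of all tested genes were highest, and control replicate 1 the lowest of 59, against 20.2%. Relative to the mean of the 6 libraries, the median member had a log2 level of 0.06, 0.52 and 0.11 in the knockout, against -0.40, -0.18 and -0.12 in the control. The members' medians in knockout replicates 1 and 3 lay between those of knockout replicate 2 and the control libraries. In 53 genes both of these knockout libraries were above all 3 control libraries. The share of all tested genes for this count was not taken, so it has no baseline here. Without knockout replicate 2, the median log2 fold change was 0.32 and 75 genes were above 0, against 8418 of all 16881 genes tested in that fit. At an unadjusted p below 0.05, 28 were higher, against 2215 of the 16881. At the adjusted threshold 1 was called higher, against 3.26% of all genes.

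The median effective transcript length of these genes was 811 bases, against 2223 bases over all tested genes. In knockout replicate 2, levels relative to the mean of 6 libraries went down with transcript length (Spearman -0.38 across 16430 genes, which share the library and its depth), while the coefficient was 0.04 to 0.16 in the other 5. The 2297 tested genes with lengths between the quartiles of the members, 557 to 1139 bases, had a median log2 fold change of 0.20, against 0.46 in the members. Of these genes 65.5% were above 0 and 5.83% were called higher. Their median level in knockout replicate 2 was 0.31, against 0.52 for the members, while in knockout replicates 1 and 3 it was 0.01 and -0.02, against 0.06 and 0.11 for the members. In the control it was -0.12, -0.07 and -0.07.

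**Figure D4:**
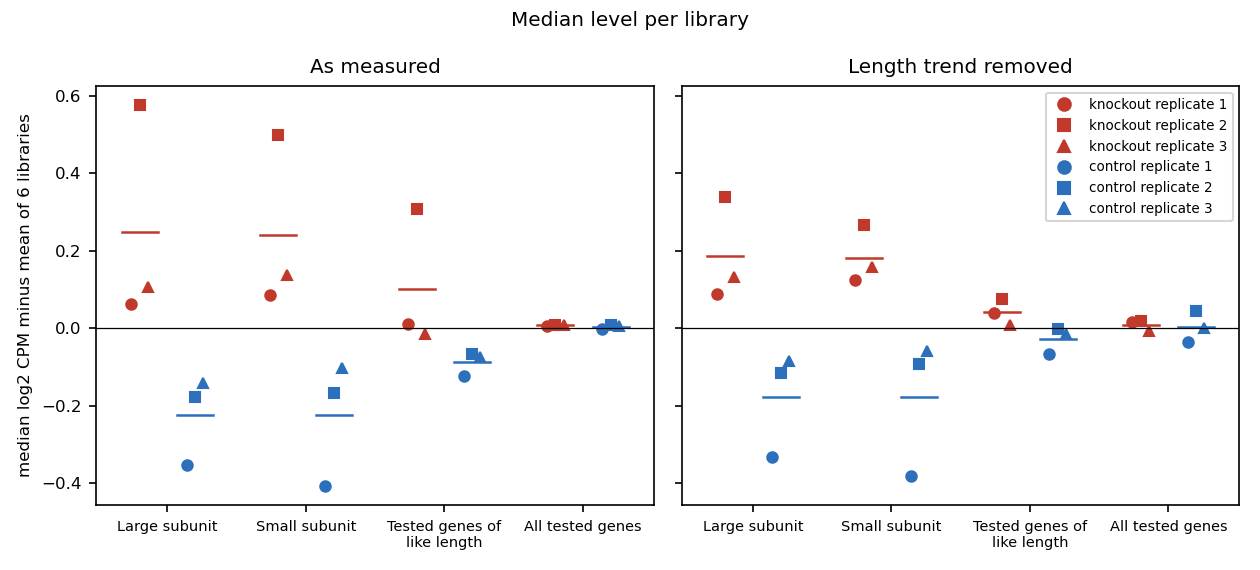
Median log2 level in each library, relative to the mean of the 6 libraries, for the large subunit, the small subunit, tested genes of like length and all tested genes, as measured (left) and with the length trend of each library removed (right), where lines are group means. Among the large-subunit genes knockout replicate 2 (square) stands at 0.58 as measured and 0.34 with the trend removed, and all knockout medians of both subunits lie above all control medians in both panels.

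With the length trend of each library fitted over all genes and removed, the median log2 fold change of the members was 0.36 and 7 were called higher, against 5.04% of all genes. The library medians were then 0.09, 0.30 and 0.13 in the knockout, against -0.34, -0.11 and -0.07 in the control. For genes of like length they became 0.04, 0.07 and 0.01 in the knockout, against -0.07, -0.0016 and -0.02 in the control. With the trend removed and knockout replicate 2 left out as well, the members' median was 0.29 and 1 gene was called, against 3.33% of all genes. Within the family, the 39 genes with shorter transcripts had a median of 0.49 and the 39 longer ones 0.41. The Spearman coefficient between length and log2 fold change was -0.14 over the 78 genes with all libraries, against -0.16 over all tested genes. Without knockout replicate 2 it was 0.12 over the 78 genes, against -0.04 over all tested genes. In all these settings the medians of both subunits stayed above 0.

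**Figure D5:**
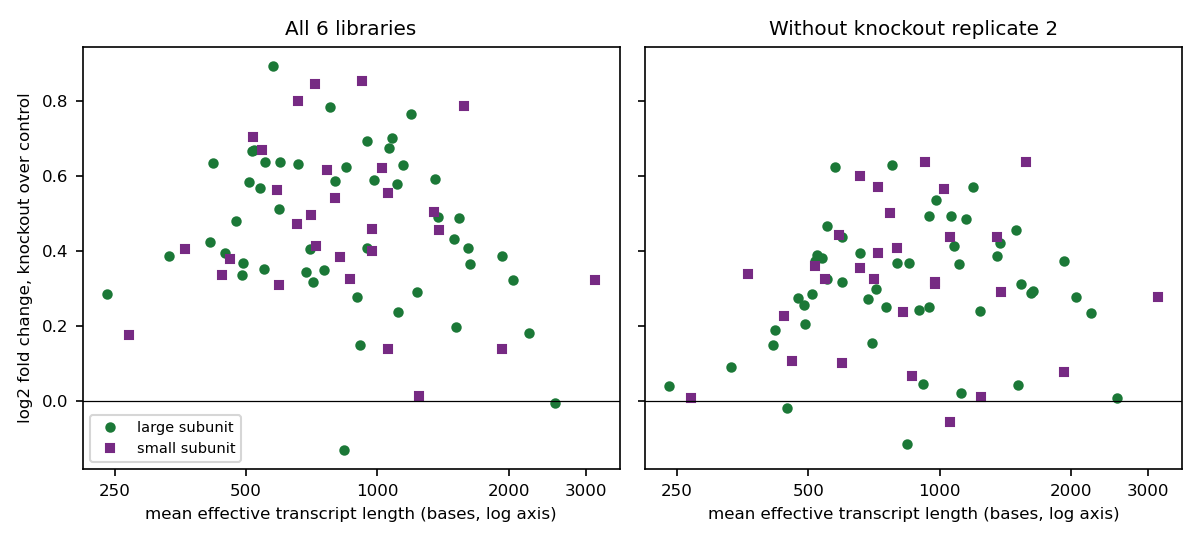
Log2 fold change, knockout over control, against mean effective transcript length in bases on a log axis for the large-subunit (circles) and small-subunit (squares) genes, with all 6 libraries (left) and without knockout replicate 2 (right). Lengths run from 240 to 3156 bases, and the points drop in height without that library, with a median of 0.32 without it and 0.46 with all 6.

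Markers of other cells differed between the same libraries. The summed level of 14 acinar markers was 5116, 2672 and 14151 CPM in the knockout, against 2257, 3549 and 900 CPM in the control, so knockout replicate 2, which had the highest levels of the ribosomal protein genes, had the lowest acinar sum of the knockout libraries. Of 8 endothelial markers 4 were called higher, with sums of 1047, 828 and 1077 CPM in the knockout, against 768, 609 and 710 CPM in the control. Of 8 mesenchymal markers 1 was called higher, with sums of 507, 363 and 743 CPM in the knockout, against 366, 200 and 429 CPM in the control. The 8 beta cell markers, of which 2 were called lower, summed to 71233, 121449 and 97978 CPM in the knockout, against 159270, 263757 and 184719 CPM in the control. The 5 alpha cell markers, of which 1 was called lower, summed to 26242, 28877 and 23964 CPM in the knockout, against 65518, 36430 and 46333 CPM in the control. The 3 delta cell markers, of which 2 were called lower, summed to 1832, 1455 and 1869 CPM in the knockout, against 3384, 3440 and 3109 CPM in the control. Hormone mRNAs made up most of the beta and alpha cell sums. In those lists Mafa (beta cell) and Ttr (alpha cell) went the other way, with log2 fold changes of 0.59 and 0.54, and were not called. Among ductal markers 1 was called higher and 1 lower, and the same held for macrophage and immune markers. In the fit blocked by replicate number, 8 of 8 mesenchymal and 5 of 8 endothelial markers were called higher, and 4 of 8 beta cell and 3 of 3 delta cell markers lower. None of the markers was at 0 in all libraries. With the acinar level as a covariate the members' median log2 fold change was 0.64 and 2 were called, against 1.05% of all genes. That level, a mean log2 value of the markers, was 0.63, -0.43 and 2.07 in the knockout, against -0.53, 0.09 and -1.83 in the control. It went partly with group. The part of acinar, endothelial, mesenchymal and endocrine cells in the result was not tested.

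Other gene lists of mitochondrial gene expression had smaller medians, and their counts of calls are to be read against the 4.1% of all tested genes called higher and 5.84% called lower. Log2 fold changes were above 0 in 14 of 18 translation factors, 24 of 27 assembly genes and 19 of 22 genes for loading tRNAs. So were those of 12 of 13 transcription and DNA maintenance genes, against 50.5% of all tested genes. Median effective lengths of these lists were 1454 to 2075 bases, against 811 in the members. Among ribosomal proteins outside the symbol rule 5 of 5 were above 0, among mitochondrially encoded mRNAs 10 of 13 and among regulators 7 of 13. Of the 5 mitochondrial ribosomal proteins whose symbols fall outside the rule, 1 was called higher: Dap3, a GTP-binding protein of the small subunit, at 60.3, 70.3 and 59.7 CPM in the knockout, against 42.3, 45.0 and 46.2 CPM in the control (log2 fold change 0.51, edgeR adjusted p = 0.0397). Their median was 0.38. Of 18 translation factors 1 was called higher and 0 lower, near those shares, with a median of 0.27, and 0 were lower at an unadjusted p below 0.05. The called factor was Gfm1, the elongation factor that moves the ribosome along the mRNA, at 33.8, 42.8 and 38.4 CPM in the knockout, against 24.95, 25.8 and 27.2 CPM in the control (0.56, edgeR adjusted p = 0.0393).

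Of 27 genes for ribosome assembly and ribosomal RNA modification 2 were called higher and 0 lower, with a median of 0.29, which was 0.16 without knockout replicate 2, and 1 was lower at an unadjusted p below 0.05. Mrm1, which methylates the large ribosomal RNA, was at 14.9, 19.0 and 16.1 CPM in the knockout, against 8.30, 9.09 and 9.40 CPM in the control. Mpv17l2, an inner-membrane protein needed for ribosome assembly, was at 10.5, 16.1 and 13.2 CPM in the knockout, against 5.84, 7.19 and 6.90 CPM in the control. In both genes the groups were well apart, with log2 fold changes of 0.90 and 0.99 (edgeR adjusted p = 0.0184 and 0.0284).

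Of 22 genes for loading mitochondrial tRNAs, 1 was called higher and 1 lower, with a median of 0.22. Gatb, a subunit of the enzyme that makes glutaminyl-tRNA in mitochondria, had a log2 fold change of 0.76 (edgeR adjusted p = 0.0430). Gars, which serves both the cytosol and mitochondria, was at 132, 110 and 147 CPM in the knockout, against 237, 206 and 210 CPM in the control (-0.75, edgeR adjusted p = 0.0235). Lars2, which loads leucine, was at 475, 28297 and 253 CPM in the knockout, against 244, 374 and 213 CPM in the control, so 1 library carried its mean, and it was not called.

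Of 13 genes for mitochondrial transcription and DNA maintenance 1 was called higher and 0 lower, with a median of 0.22, which was 0.14 without knockout replicate 2. The called gene was Pnpt1, a mitochondrial RNA-degrading phosphorylase (0.64, edgeR adjusted p = 0.0497). In the fit blocked by replicate number, 3 of 18 translation factors, 4 of 27 assembly genes, 3 of the 22 genes for loading tRNAs and 2 of these 13 were called higher, against 6.93% of all genes. Of the 13 mRNAs that mitochondrial DNA encodes, edgeR called 0 in either direction, as did DESeq2 and limma-voom, and 0 had an unadjusted p below 0.05. Their median log2 fold change was 0.11, against 0.46 for the nuclear genes of the ribosome that translates them. Without knockout replicate 2 these medians were 0.25 and 0.32, and the difference was not tested.

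Among 13 regulators of mitochondrial biogenesis 1 was called higher and 1 lower, with a median of 0.10. Ppargc1a, a coactivator that raises the expression of nuclear genes for mitochondrial proteins, was at 15.1, 5.17 and 6.69 CPM in the knockout, against 3.25, 2.11 and 1.31 CPM in the control (2.02, edgeR adjusted p = 0.0386). Its groups did not overlap, and knockout replicate 1 was the highest library. Atf5, a transcription factor of the mitochondrial unfolded protein response in mammals, fell to 18.8, 16.6 and 21.0 CPM in the knockout, against 89.8, 87.2 and 58.5 CPM in the control. Its groups were far apart, with a log2 fold change of -2.06 (edgeR adjusted p = 0.00157). Atf5 was called in 6 of 6 fits that left out 1 library, while Ppargc1a, Mrm1 and Gars were called in 2 of them, Gfm1 and Mpv17l2 in 1, and Dap3, Gatb and Pnpt1 in 0. Nrf1, Gabpa and Yy1, whose sites were counted in the promoters above, had log2 fold changes of -0.29, 0.23 and -0.06, and none was called (edgeR adjusted p = 0.238, 0.244 and 0.825).

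Reads of these genes were not all from transcripts annotated as protein-coding. The median member had 7.77% of its estimated reads on transcripts annotated as any type other than protein-coding, 21 members had over 20% and 11 over 50%. Among the 58 members with a share between 1 and 99%, the share was higher in every knockout library than in every control library in 6, against 4% of protein-coding genes, and lower in 3, against 5.07%. In Mrpl51 the share was 56.1, 60.7 and 55.5% in the knockout, against 45.9, 49.5 and 51.3% in the control. Mrpl18, the gene of lowest change, had 10.2, 9.35 and 12.5% in the knockout, against 3.19, 2.44 and 6.93% in the control, and Mrpl14 had 2.28, 2.81 and 3.27% in the knockout, against 8.47, 9.87 and 11.9% in the control. In each of these 3 genes p was 0.1 by a two-sided exact permutation test, the smallest that 3 libraries against 3 allow. Mrpl51 and Mrpl14 were chosen after their values were seen. Counting protein-coding transcripts only, 5 members were called higher and the median log2 fold change was 0.46.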

How the data were processed

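Polyadenylated RNA of 6 islet libraries was analysed, 3 Dpy30 knockout and 3 control. The submitters' processing notes name Trimmomatic, Salmon, DESeq2, GRCm38 and mm10. Their versions, the annotation and the settings: not given in the sources used here. Per transcript, the authors deposited estimated counts (not whole, because shared reads are divided among transcripts), TPM and transcript lengths, per the file headers. They also deposited a comparison table holding a mean signal of all samples, log2 fold changes and p-values, per the file headers. Its direction, knockout over control, was checked on 1535 genes called there and here, of which 1535 had the same sign. A deposited table of scaled values for the 6 libraries, 6 columns, was not used.

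Here the estimated counts were summed per gene (GENCODE vM21, transcript identifier without version, 99.6 to 99.7% of reads matched) and rounded. Genes were kept by filterByExpr (minimum count 10), scaled by TMM and tested two-sided by the quasi-likelihood test of edgeR 4.0.16 (R 4.3.3) with group as the only term. P-values were adjusted by Benjamini-Hochberg over 16430 genes, with a threshold of 0.05. CPM use TMM-scaled library sizes, and log2 levels a prior count of 2. Length trends were loess fits per library (span 0.3). The procedure was tested on simulated data, where it recovered 28.0% of 2-fold and 78.0% of 4-fold changes. Of its calls there, 10.2% were genes left unchanged. The alternatives used DESeq2 1.42.0 and limma 3.58.1 among others.

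Members and lists were chosen with earlier results of these data known. The 40 members named by rule are those called, the 5 of highest and 5 of lowest change, those of highest and lowest TPM in each subunit, and those of known role or paralogy; other members named were chosen after their values were seen. Replicate numbers are shared by the groups. Libraries of the same number deviated together from their group means (r = 0.427, 0.135 and 0.196, all above 0.1, other pairs -0.318 to 0.14). Knockout replicate 2, however, went with control replicate 3 (0.14) as much as with control replicate 2 (0.135). No label explains the number. It was used as a block in alternative fits only, and the main test had group as its only term. Each library is 1 mouse.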

Additional observations from a re-analysis of the deposited data

How the results depend on the processing

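The median log2 fold change of the members, 0.46 over all 78, stayed above 0 in every alternative run, as did those of the large and the small subunit. Without 1 library at a time the medians were 0.32 to 0.55 for all, 0.30 to 0.57 in the large and 0.33 to 0.55 in the small subunit, and 0 to 3, 0 to 3 and 0 to 0 genes were called. Those fits called 243 to 550 of all tested genes higher. The counts of members called, 6 in all and 3 in each subunit, moved more. In the order all, large and small they were 19, 10 and 9 with the replicate block. With the block and the length trend removed they were 17, 11 and 6, against 1318 of 16430 tested genes called higher. They were 20, 13 and 7 by DESeq2, 2, 1 and 1 by limma-voom, and 2, 1 and 1 with the acinar covariate. With that covariate the large-subunit median was 0.65. With 1 library left out and the trend removed, chosen after seeing the data, the medians were 0.25 to 0.41 for all, 0.28 to 0.41 in the large and 0.24 to 0.42 in the small subunit, lowest without control replicate 1 in each, with 0 to 3, 0 to 3 and 0 to 0 calls. The fits with 1 library left out and the trend removed called 302 to 562 of all tested genes higher. Without control replicate 1, 2 or 3, and no trend removed, edgeR called 0 members, while 365, 285 and 243 of all tested genes were called higher. At an unadjusted p below 0.05, 21, 33 and 36 members were higher, against 1921 of 16812, 1703 of 16872 and 1858 of 16891 tested genes. With DESeq2 size factors, no filter, an average length offset, protein-coding transcripts only, or Gm42418 and Lars2 left out, the count of all members was 7, 6, 4, 5 and 6. In the same order, 676 of 16430, 841 of 31158, 572 of 16430, 568 of 14054 and 679 of 16523 tested genes were called higher. Among the members whose log2 fold change is given, 7 that were not called changed sign. Mrpl1 was above 0 in limma-voom (0.0041), with the block (0.0024), the length offset (0.094), the trend removed (0.040), the trend and block (0.044) and the acinar covariate (0.095). Mrpl18 was 0.11 with the length offset. Mrps9 was -0.0066 without the filter, -0.049 with the trend removed and -0.051 with the block too. Without 1 library at a time Mrpl1 lay between -0.125 and 0.0777, Mrpl18 between -0.333 and 0.0224, Mrps2 between -0.0132 and 0.242, Mrps26 between -0.0550 and 0.260 Mrps9 between -0.0621 and 0.119, and Mrpl14 between -0.0192 (without knockout replicate 2) and 0.604. With the trend removed too, Mrpl1 was 0.038, 0.094, 0.11 and 0.070 without knockout replicate 2 or 3 or control replicate 1 or 3. Under the same removal Mrps9 was -0.16, -0.10 and -0.10 without knockout replicate 1 or control replicate 2 or 3, Mrps2 -0.026 without control replicate 1, Mrps26 -0.071 and Mrpl14 -0.045 without knockout replicate 2, and Mrps21 -0.0084 and -0.065 without knockout replicate 2 or control replicate 1. The cause of these changes was not tested. Precision is limited by 3 mice a group: the common biological coefficient of variation was 0.26, and the median SE of a member's log2 fold change was 0.18.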

Other observations

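Many of these genes start close to the start of a gene on the other strand, and whether such neighbours share a promoter was not tested. A protein-coding gene started within 1000 bases on the opposite strand for 33 of the 78 (42.3%), against 15.0% of 14232 tested protein-coding genes. Mrps11 and Mrpl46 form such a pair of members, with log2 fold changes of 0.84 and 0.41. Of the partners outside the family 29 were tested, and their median log2 fold change was 0.11, with 17 above 0. The members with a partner had a median of 0.42 and those without one 0.46. Among the 29 tested partners edgeR called 1 higher and 0 lower, where 4.1% of all tested genes were called higher and 5.84% lower. The called partner was Ndufs6, a complex I subunit whose gene starts 29 bases from Mrpl36 (0.59, edgeR adjusted p = 0.0354). Mrps12 and its partner Sars2, the mitochondrial seryl-tRNA synthetase, had 0.67 and 0.54, and Mrpl47 and its partner Ndufb5, another complex I subunit, 0.37 and 0.49, none of them called. Mrpl57 had 0.67 and its partner Ska3 -0.32, neither called. The genes were spread over the genome, with at most 11 on 1 chromosome, chromosome 11, and 8 on chromosome 17.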
